A study of Homo sapiens with 18 samples.

Results

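The genes described here encode the subunits of the proteasome, the chambered protease that degrades ubiquitin-tagged proteins in the cytoplasm and nucleus. Members were all genes whose symbol begins with PSMA, PSMB, PSMC or PSMD followed by a number, other than the immunoproteasome subunits PSMB8, PSMB9 and PSMB10, with a mean of at least 1 CPM (the count scaled to a common library total) in either cell line. Of 39 symbols of that form 3 were excluded by name, and PSMA8 and PSMB11 did not reach 1 CPM, which left 34 members among 58051 genes in the file. They comprised 14 genes of the 20S core, 17 of the 19S regulatory particle and 3 assembly chaperones of that particle (PSMD5, PSMD9 and PSMD10), and all 34 passed the filter on low counts in every fit.

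RNA was sequenced from SKMEL2 and SKMEL30, human melanoma cell lines with a variant in NRAS, each stably transduced and selected with puromycin for a lentiviral tet-ON construct carrying PPP2R3B, which encodes a regulatory subunit of the phosphatase PP2A. Both lines carried the construct in every library. Each line was sampled without induction (labelled Untreated) and after 6 and 18 hours of doxycycline, the drug that switches the construct on, with 3 libraries per group and 18 in all. Whether a line was 1 clone, and whether replicates were separate cultures, is not given in the sources used here, so p-values measure the spread between these libraries. Cells without the construct but with doxycycline were not analysed here, so that the drug and PPP2R3B cannot be told apart.

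The 20S core is a barrel of stacked rings. The outer alpha rings (PSMA genes) form the gate, and the inner beta rings (PSMB genes) hold the proteolytic sites of PSMB5, PSMB6 and PSMB7. The 19S regulatory particle caps the barrel: its base contains a ring of ATPases (PSMC genes) that unfold and thread the substrate, the scaffold proteins PSMD1 and PSMD2, and the ubiquitin receptor PSMD4, and its lid carries the deubiquitinase PSMD14. Subunit genes are commonly transcribed in concert, and when proteasome activity falls the factor NRF1 (gene NFE2L1) raises them through antioxidant response elements in their promoters.

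Totals ran from 13402645 to 22383470 counts per library, with a median of 17958636. PPP2R3B rose from 20.7 ± 3.60 CPM (SD, n = 3) to 425 ± 86.3 at 6 hours and 474 ± 43.9 at 18 hours in SKMEL2, and from 20.9 ± 1.35 to 541 ± 22.8 and 616 ± 1.76 in SKMEL30, and passed the edgeR test in all 4 comparisons. The 7 melanocyte lineage markers summed to between 3810 and 4560 CPM in SKMEL2 libraries and between 8670 and 9200 in SKMEL30. They did not all differ in the same direction between uninduced lines. PMEL (1560 against 5380 CPM), TYRP1 (4.06 against 1280) and MITF (408 against 798) were called higher in SKMEL30. SOX10 (639 against 463), MLANA (437 against 292) and TYR (424 against 238) were called lower, and DCT was not called. The immune list summed to at most 55.6 CPM with PTPRC and CD3E under 1 CPM everywhere. Nearly all of that sum was CD68 (46.8 CPM in uninduced SKMEL2 and 35.0 in SKMEL30). The fibroblast list summed to at most 4.49 CPM with COL1A1 and DCN under 1, and the single endothelial marker matched, VWF, to at most 2.97. The epithelial list summed to 14.1 to 20.2 CPM in SKMEL2 and 101 to 129 in SKMEL30, where nearly all of it was CDH1 (3.86 against 103 CPM in uninduced cells), whereas KRT8 (12.3 against 1.14) and EPCAM (1.04 against 0.0182) were lower in SKMEL30. CDH1 was also called on induction in SKMEL30 at 18 hours (log2 fold change 0.29, adjusted p = 0.00341 by edgeR). In SKMEL2, the median log2 deviation of the 34 subunit genes from the mean of the line's 9 libraries was lowest in the third uninduced library (-0.07, with 24 genes below the mean) and highest in the third 6 hour library (0.08, with 25 above). The most one-sided count was in the second uninduced library, with 31 genes above the mean (median 0.04).

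Promoter sequence is given for the 3 genes with the largest differences between the lines that had an entry in the RefSeq promoter table (GRCh38.p14), and for PSMB5, the only catalytic subunit with one. PSMD11 (lid) lies at chr17:32444260-32444559, PSMD2 (base) at chr3:184298991-184299290 and PSMD3 (lid) at chr17:39980557-39980856, all on the plus strand, and PSMB5 at chr14:23035171-23035470 on the minus strand. Each sequence holds 250 bases before and 50 after the start and reads 5′ to 3′ along the gene. Capitals mark the letters TGANNNNGC, the core of the antioxidant response element, and CCAAT, bound by NF-Y, on either strand.
PSMD11: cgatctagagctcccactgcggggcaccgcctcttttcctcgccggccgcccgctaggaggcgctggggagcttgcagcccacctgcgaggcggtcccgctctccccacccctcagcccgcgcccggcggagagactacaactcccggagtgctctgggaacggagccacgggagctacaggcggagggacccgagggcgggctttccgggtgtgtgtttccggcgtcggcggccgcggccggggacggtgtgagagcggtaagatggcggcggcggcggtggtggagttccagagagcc
PSMD2: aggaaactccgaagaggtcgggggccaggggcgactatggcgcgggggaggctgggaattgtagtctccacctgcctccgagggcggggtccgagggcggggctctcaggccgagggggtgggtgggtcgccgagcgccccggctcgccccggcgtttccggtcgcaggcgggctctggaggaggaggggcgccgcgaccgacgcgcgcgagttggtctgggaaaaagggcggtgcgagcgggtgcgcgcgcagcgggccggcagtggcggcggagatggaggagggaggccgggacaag
PSMD3: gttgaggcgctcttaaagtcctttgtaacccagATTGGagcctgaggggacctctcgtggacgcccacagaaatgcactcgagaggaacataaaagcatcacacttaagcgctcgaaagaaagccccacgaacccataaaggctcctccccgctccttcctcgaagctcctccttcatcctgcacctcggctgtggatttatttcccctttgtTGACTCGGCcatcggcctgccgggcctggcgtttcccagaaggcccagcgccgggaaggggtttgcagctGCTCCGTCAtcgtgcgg
PSMB5: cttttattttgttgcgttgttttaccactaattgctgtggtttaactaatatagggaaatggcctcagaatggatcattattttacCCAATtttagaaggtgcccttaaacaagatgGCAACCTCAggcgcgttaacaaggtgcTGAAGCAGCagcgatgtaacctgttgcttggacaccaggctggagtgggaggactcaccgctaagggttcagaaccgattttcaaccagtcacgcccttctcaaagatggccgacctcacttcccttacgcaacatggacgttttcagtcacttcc

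The promoters of PSMD11 and PSMD2 held neither motif, nor the ETS core GGAAG on either strand, whereas PSMD3 and PSMB5 each held 2 matches to TGANNNNGC and 1 to CCAAT. Of the 34 members 29 had an entry (PSMA7, PSMB1, PSMB6, PSMB7 and PSMD4 had none), and 17 of these 29 (58.6%) held TGANNNNGC, against 42.1% of all 27305 promoters in the table. CCAAT was present in 15 (51.7%, against 35.7% of all promoters) and GGAAG in 25 (86.2%, against 71.9%). In PSMD14 the 2 CCAAT matches, 1 on each strand, overlap each other. A match is a string of letters and not a proven site.

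The first comparison asked whether subunit genes changed when PPP2R3B was induced. No member passed the test at 6 or 18 hours in either line. In SKMEL2, 0 of 34 members were called at an adjusted p under 0.05 (edgeR quasi-likelihood test, Benjamini-Hochberg over all genes tested) at 6 hours, where 0.0124% of 16120 genes were called, and 0 at 18 hours, where the share was again 0.0124%. In SKMEL30, 0 were called at 6 hours, against 0.206% of 15026 genes, and 0 at 18 hours, against 0.293%. At an unadjusted p under 0.05 the members numbered 1, 0, 0 and 1 in these 4 comparisons, and DESeq2 called none in any of them. CPM is a share of the library, so fewer cells expressing a gene and less RNA per cell cannot be told apart.

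The intervals limit how large a change could have gone unseen. In SKMEL30 the 95% confidence intervals of all 34 log2 fold changes lay within -0.25 and 0.25 at both times, and the most extreme bounds were -0.22, for PSMB6 at 18 hours, and 0.19, for PSMD9 at 6 hours. In SKMEL2 the intervals were wider. They lay within the same limits for 24 members at 6 hours and 26 at 18 hours, and within -0.5 and 0.5 for all 34 at both times. The replicate spread behind them also differed: the median coefficient of variation of a member within groups was 6.65% in SKMEL2 (2.53% to 14.3%) and 2.88% in SKMEL30 (1.02% to 4.93%), and 30 of 34 members varied more in SKMEL2.

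**Figure D1:**
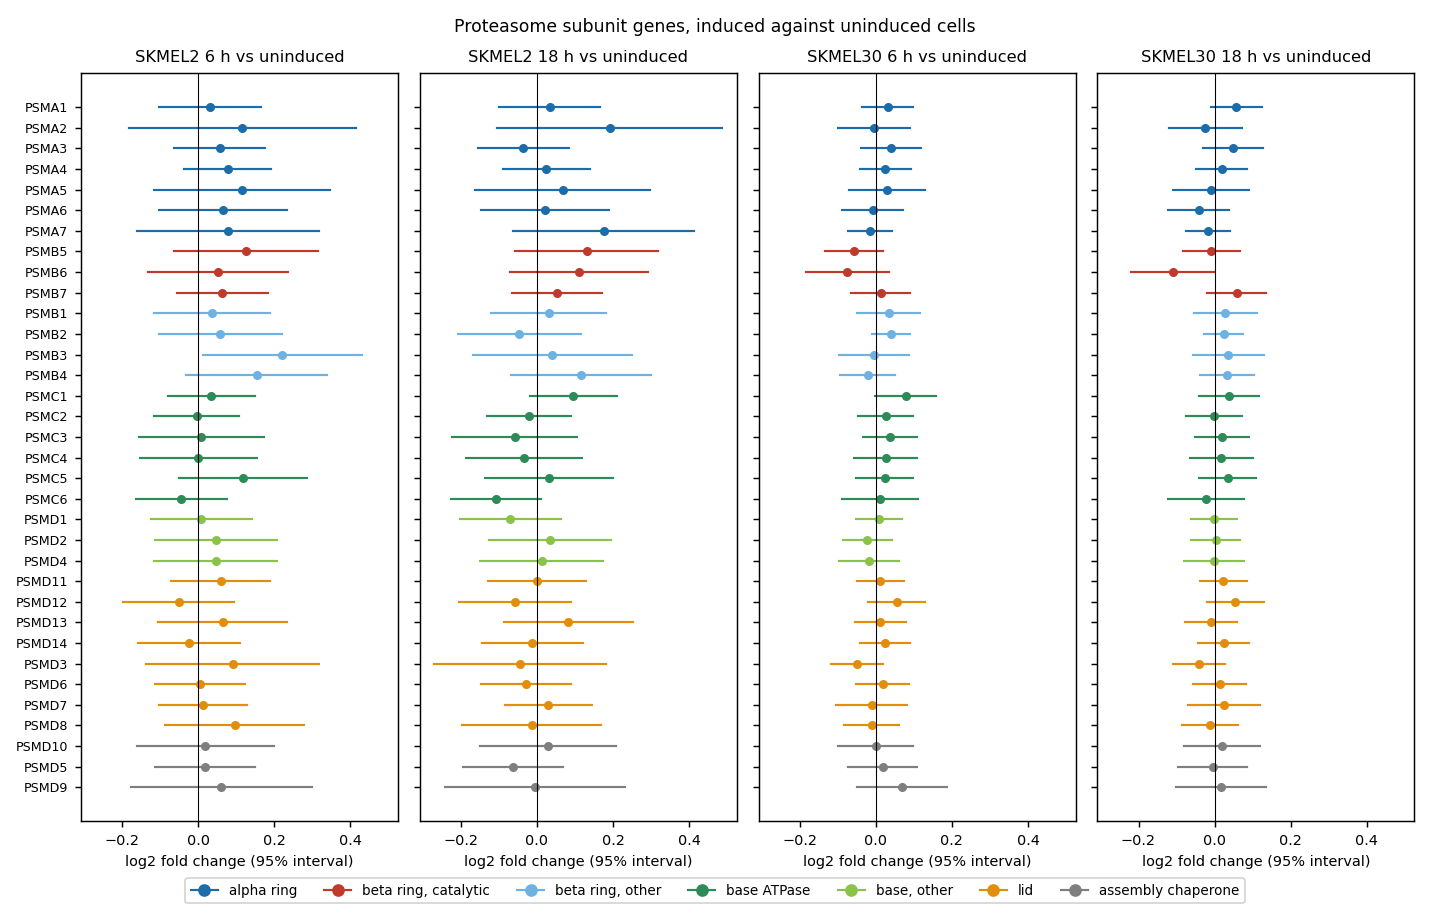
Log2 fold change (x axis) of each of the 34 proteasome subunit genes (y axis) in induced against uninduced cells, in 4 panels by line and time; points are edgeR estimates, bars 95% confidence intervals, and colours the role of the subunit. In SKMEL30 the intervals all lie between -0.25 and 0.25, whereas in SKMEL2 they reach 0.49.

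The member medians were small in each comparison. In SKMEL2 at 6 hours, 30 of 34 fold changes were above 0 with a median of 0.055 on the log2 scale, against 0.003 over all genes tested, of which 50.9% were above 0. That count rested on 2 libraries: without the third uninduced library 20 were above 0 (median 0.016), and without the third 6 hour library 22 were (median 0.013). At 18 hours in SKMEL2 20 members were above 0 (median 0.023), and in SKMEL30 21 (median 0.013) at 6 hours and 20 (median 0.017) at 18 hours.

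Among the catalytic subunits, PSMB5, the chymotrypsin-like site, stood at 87.3, 90.7 and 74.8 CPM in the uninduced SKMEL2 libraries, 94.3, 82.1 and 98.9 at 6 hours and 90.4, 93.6 and 93.0 at 18 hours. The lowest value belongs to the third uninduced library, and the groups overlap. In SKMEL30 PSMB5 ran from 89.3 to 93.5 CPM uninduced, from 85.2 to 89.4 at 6 hours and from 88.6 to 91.8 at 18 hours. PSMB7, the trypsin-like site, lay between 169 and 187 CPM over the 9 SKMEL2 libraries and between 162 and 180 over those of SKMEL30. None of these fold changes passed the test, with values between -0.06 and 0.13 for PSMB5 and between 0.01 and 0.06 for PSMB7.

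PSMB6, the caspase-like site, had the smallest unadjusted p of any member in SKMEL30 at 18 hours. Its CPM there was 56.1, 57.5 and 56.1 uninduced, 52.1, 51.1 and 57.7 at 6 hours, and 54.7, 51.8 and 50.8 at 18 hours. All 3 libraries at 18 hours were below all 3 uninduced libraries, whereas 1 of those at 6 hours was above them. The log2 fold change at 18 hours was -0.11 ± 0.051 (SE), with an adjusted p of 0.54 by edgeR. In SKMEL2 PSMB6 stood at 35.6, 35.7 and 29.9 CPM uninduced and 38.0, 35.6 and 35.5 at 18 hours (log2 fold change 0.11). The difference between the lines in the response at 18 hours was -0.22 ± 0.096 (SE), with an unadjusted p of 0.0316 and an adjusted p of 0.895 by edgeR.

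PSMB3, a beta ring subunit without a proteolytic site, gave the highest fold change of any member, 0.22 ± 0.096 (SE) on the log2 scale in SKMEL2 at 6 hours, with an adjusted p of 0.989 by edgeR. Its CPM was 86.7, 97.6 and 86.1 uninduced and 97.6, 94.6 and 122 at 6 hours. The third 6 hour library alone was above all of the uninduced ones by more than their range. PSMB4, with the next smallest p, reached 437 CPM in that library against 344 and 370 in the other two and 324 to 365 uninduced.

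In the regulatory particle, the smallest p in SKMEL2 at 18 hours was that of PSMC6, an ATPase. It stood at 104, 102 and 100 CPM uninduced and 94.1, 96.8 and 92.8 at 18 hours, so that the groups did not overlap, but the fold change of -0.11 ± 0.055 (SE) had an adjusted p of 0.987 by edgeR. PSMC1, another ATPase, had the smallest p in SKMEL30 at 6 hours, with 133, 144 and 131 CPM uninduced against 147, 146 and 140 (log2 fold change 0.08 ± 0.037 SE, adjusted p = 0.774 by edgeR). PSMC1 has an expressed pseudogene copy, PSMC1P1, with which reads could be shared. The lid deubiquitinase PSMD14 gave fold changes between -0.02 and 0.02 in the 4 comparisons, and the ubiquitin receptor PSMD4 between -0.02 and 0.05.

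For the 15 members given by library, an exact two-sided permutation test compared the 6 induced with the 3 uninduced libraries of each line. Over 30 such tests the smallest Benjamini-Hochberg adjusted p was 0.446. The smallest unadjusted exact p was 0.0238, for PSMB2, a beta ring subunit, in SKMEL30 (310 CPM uninduced and 317 induced on average). With 84 splits this two-sided test can go no lower, as all 6 induced libraries were above the 3 uninduced ones. Some of these members were picked for a small p in the same comparisons, and no single test could pass the adjustment over 30 by itself, so these values are a description.

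The times and the lines were also compared directly. Between 18 and 6 hours 0 of 34 members were called in SKMEL2, where 0% of all genes were, and 0 in SKMEL30, where 0.02% were. In the tests of the difference between the lines in response, 0 members were called at 6 hours (0% of 17133 genes) and 0 at 18 hours (0.00584%). At an unadjusted p under 0.05 the members numbered 0, 0, 0 and 1 in these 4 comparisons, and DESeq2 called none.

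The summed levels of the complexes were close to each other at the 3 times within each line. The core summed to 2090, 2210 and 1935 CPM in uninduced SKMEL2, 2203, 2079 and 2344 at 6 hours and 2134, 2181 and 2207 at 18 hours. The ratio of the means to uninduced was 1.063 at 6 hours and 1.046 at 18 hours, with an SD of 138 CPM among the uninduced libraries. In SKMEL30 the core was 2210 ± 40.0 CPM uninduced, 2222 ± 22.9 at 6 hours and 2231 ± 37.3 at 18 hours (mean ± SD, n = 3). The regulatory particle in SKMEL2 was 2547 ± 76.7, 2595 ± 105 and 2540 ± 86.6 CPM uninduced, at 6 hours and at 18 hours, and in SKMEL30 3135 ± 26.3, 3157 ± 48.7 and 3155 ± 15.1. In both lines the induced means differed from the uninduced mean by less than the larger SD of the 2 groups compared.

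The low core sum of the third uninduced SKMEL2 library came mainly from the alpha ring, which summed to 833 CPM there against 973 and 1027 in the other 2. PSMA2 was 53.4 CPM in that library against 77.0 and 78.8, and PSMA7 was 174 against 214 and 228. The second 6 hour library resembled it, with an alpha ring of 920 CPM, PSMA2 at 63.3 and PSMA7 at 182. In these 2 libraries the most abundant gene took 1.81% and 1.58% of all counts, against 1.23% to 1.41% in the other 7 SKMEL2 libraries; its part in these values was not tested.

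The second comparison was between the lines. The levels of subunit genes differed between SKMEL30 and SKMEL2 gene by gene and in both directions, and the difference persisted through induction. In uninduced cells 23 of 34 members were called by edgeR, a share no larger than the 75.9% of all 17133 genes that were called. Of these members 15 were higher in SKMEL30 (against 35.8% of all genes) and 8 lower (against 40.1%). At 6 hours 24 were called against 75.4% of all genes, 15 higher (against 35.8%) and 9 lower (against 39.6%). At 18 hours 23 were called against 75.1%, 15 higher (against 35.8%) and 8 lower (against 39.3%). The 3 times have no library in common, and 22 members were called in the same direction at all 3, against 67.1% of all genes. Of these 15 were higher (against 31.7% of all genes) and 7 lower (against 35.4%), whereas 10 members were called at no time (against 15.8%). For 12 members all 9 SKMEL30 libraries were above all 9 of SKMEL2 (against 29.8% of all genes) and for 7 below (against 32.8%), together against 62.6%. The members' median difference was 0.057 in uninduced cells against -0.054 over all genes tested.

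The split depended on the scaling. With total counts in place of TMM factors, the median of all genes moved from -0.054 to -0.156, that of the members from 0.057 to -0.045, and the calls in uninduced cells became 12 higher and 15 lower (44.4% higher, against 65.2%). Relative to the median of all genes the members lay at the same place under both scalings, so the directions below are relative to the TMM scale. In uninduced cells DESeq2 called 15 higher and 8 lower, and edgeR with RLE factors 15 and 9. At 6 hours the split was 12 and 10 with DESeq2 and 13 and 10 with RLE factors, against 15 and 9 with TMM factors. At 18 hours it was 13 and 8 with each, against 15 and 8. Below, calls with total counts are given only among the 15 members given by library. Further members called lower with total counts are not named.

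**Figure D2:**
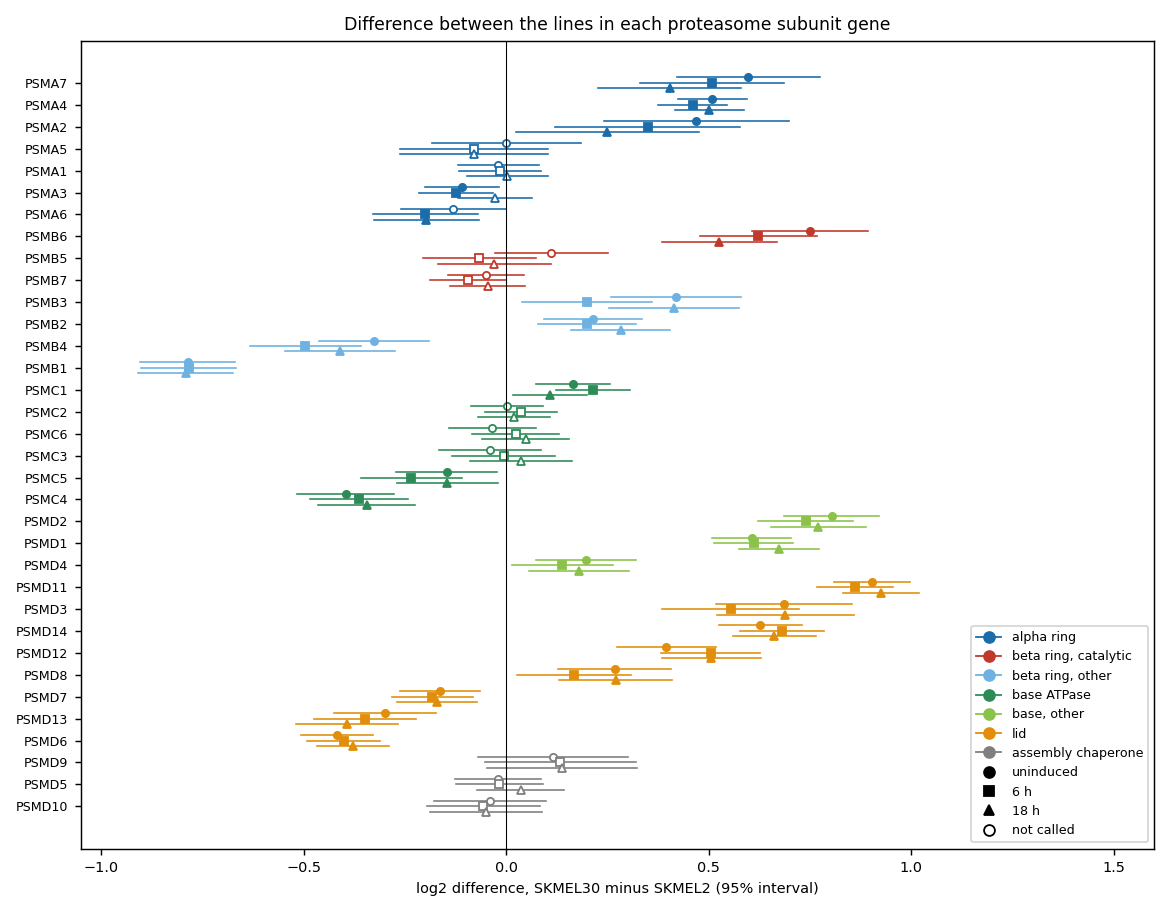
Log2 difference between SKMEL30 and SKMEL2 (x axis) for each proteasome subunit gene (y axis, grouped by role), with circles for uninduced cells, squares for 6 hours and triangles for 18 hours of doxycycline; bars are 95% confidence intervals from edgeR, and open symbols were not called. The 3 times fall close together for most genes, from PSMD11 at 0.90 to PSMB1 at -0.79 in uninduced cells.

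Every lid gene among the members was called in uninduced cells, where 75.9% of all genes were. Of these 8 genes 5 were higher in SKMEL30 (against 35.8% of all genes), 3 lower (against 40.1%) and 0 uncalled. The lid subunit SEM1, whose symbol falls outside the naming rule, was also lower (-0.32, adjusted p = 6.51e-05 by edgeR). PSMD11 (chr17:32444510-32483319), a scaffold subunit of the lid, stood at 118, 127 and 123 CPM in uninduced SKMEL2 and 234, 227 and 226 in SKMEL30. All 9 SKMEL30 libraries (226 to 237 CPM) were above all 9 of SKMEL2 (118 to 133). The log2 difference was 0.90 ± 0.045 (SE), with an adjusted p of 4.46e-13 by edgeR.

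PSMD3 (chr17:39980807-39997959), another lid scaffold, stood at 120, 142 and 146 CPM in uninduced SKMEL2 and 220, 222 and 216 in SKMEL30, a log2 difference of 0.69 ± 0.081 (SE). The deubiquitinase PSMD14 stood at 122, 129 and 113 CPM against 181, 186 and 194, a difference of 0.63 ± 0.049. For both genes the libraries of the lines did not overlap at any time. The other lid members higher in SKMEL30 were PSMD12 (0.39) and PSMD8 (0.27), and the members lower were PSMD6 (-0.42), PSMD13 (-0.30) and PSMD7 (-0.16). All had libraries that did not overlap between the lines, as did 62.6% of all genes.

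In the base, all 3 members that are not ATPases were higher in SKMEL30, against 35.8% of all genes. ADRM1, a ubiquitin receptor of the base outside the naming rule, was higher in uninduced cells (0.28, adjusted p = 0.00728 by edgeR). It was called at 18 hours (0.24, adjusted p = 0.0214 by edgeR) but not at 6 hours (0.13, adjusted p = 0.21 by edgeR). PSMD2 (chr3:184299241-184309050), the scaffold that holds shuttle factors, stood at 331, 348 and 317 CPM in uninduced SKMEL2 and 572, 571 and 596 in SKMEL30. The log2 difference was 0.80 ± 0.056 (SE), with an adjusted p of 9.82e-11 by edgeR. PSMD1, the other large scaffold, differed by 0.61 ± 0.047, and the receptor PSMD4 by 0.20 ± 0.059. PSMD4 was not called when total counts replaced TMM factors (0.09, adjusted p = 0.17 by edgeR, the highest of 13 alternatives, whose lowest was 0.000442).

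The ATPase ring did not follow the scaffolds. Of the 6 ATPases 1 was higher in SKMEL30, PSMC1 (0.17), against 35.8% of all genes. Those lower were 2, PSMC4 (-0.40) and PSMC5 (-0.15), against 40.1%. PSMC2, PSMC3 and PSMC6 were not called, with values between -0.04 and 0.00. With total counts PSMC6 was called lower (-0.14), and results for PSMC2 and PSMC3 are not given. PSMC1 was not called with total counts (0.06, adjusted p = 0.203 by edgeR, the highest of 13 alternatives, whose lowest was 0.00099). The ring summed to 810 ± 19.3 CPM in uninduced SKMEL2 and 769 ± 0.443 in SKMEL30, a ratio of 0.950 (mean ± SD, n = 3). PSMD1, PSMD2 and PSMD4 together summed to 657 ± 25.9 and 1027 ± 17.6, a ratio of 1.564.

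Of the catalytic subunits of the beta ring, PSMB6 (chr17:4796164-4798495) was called at all 3 times. It stood at 35.6, 35.7 and 29.9 CPM in uninduced SKMEL2 and 56.1, 57.5 and 56.1 in SKMEL30, and the 9 libraries of each line did not overlap (29.9 to 38.0 against 50.8 to 57.7). The log2 difference was 0.75 ± 0.068 (SE) in uninduced cells, 0.62 at 6 hours and 0.53 at 18 hours. PSMB5 (0.11, 95% interval -0.03 to 0.25) and PSMB7 (-0.05, -0.14 to 0.04) were called at no time on the TMM scale. In uninduced cells PSMB7 was called lower in SKMEL30 with total counts (-0.15, adjusted p = 0.00605 by edgeR, the lowest of 13 alternatives, whose highest was 0.891). PSMB5 was called higher without the second uninduced SKMEL2 library (0.18, adjusted p = 0.0306 by edgeR, the lowest of 13 alternatives, whose highest was 0.917).

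PSMB1 (chr6:170535120-170553307), which completes the beta ring without a proteolytic site, had the lowest difference of any member. It stood at 144, 145 and 127 CPM in uninduced SKMEL2 and 79.8, 79.5 and 82.0 in SKMEL30, a log2 difference of -0.79 ± 0.056 (SE) with an adjusted p of 1.29e-10 by edgeR. Over all times the SKMEL30 libraries (78.7 to 85.6 CPM) were below those of SKMEL2 (127 to 149). PSMB4 was also lower in SKMEL30 (-0.33), and PSMB3 (0.42) and PSMB2 (0.21) were higher, PSMB2 not being called with total counts (0.11, adjusted p = 0.0575 by edgeR, the highest of 13 alternatives, whose lowest was 0.000142).

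The alpha ring also held differences in both directions. PSMA7 (0.60), PSMA4 (0.51) and PSMA2 (0.47) were higher in SKMEL30 in uninduced cells, and PSMA3 was lower (-0.11). PSMA1, PSMA5 and PSMA6 were not called. With total counts PSMA1 was called lower (-0.12), and results for PSMA5 and PSMA6 are not given. PSMA3 was not called at 18 hours (-0.03), and PSMA6 was lower at 6 and 18 hours (-0.20 at both). The difference was 0.51 at 6 hours and 0.40 at 18 hours for PSMA7, 0.46 and 0.50 for PSMA4, and 0.35 and 0.25 for PSMA2, whose level in the third uninduced SKMEL2 library was low (53.4 CPM). The 3 assembly chaperones were called at no time on the TMM scale (against 15.8% of all genes), with differences between -0.06 and 0.14. They summed to 138 ± 6.85 CPM in uninduced SKMEL2 and 139 ± 0.977 in SKMEL30.

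**Figure D3:**
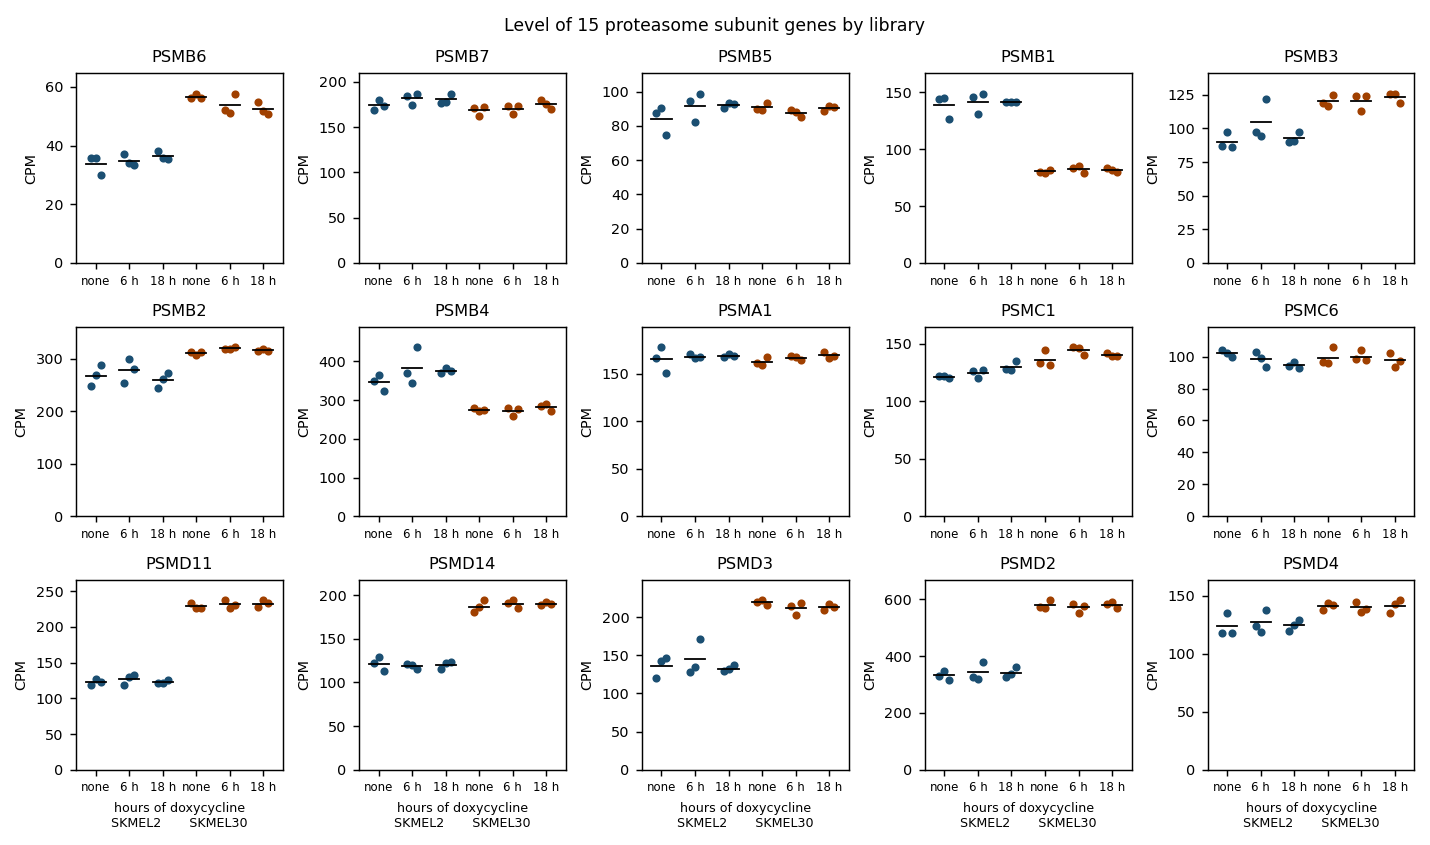
CPM (y axis, from 0) of 15 proteasome subunit genes in each of the 18 libraries, by line and hours of doxycycline (x axis); points are libraries and lines the mean of 3. The libraries of the lines do not overlap for PSMB6, PSMB1, PSMB2, PSMB4, PSMD11, PSMD14, PSMD3 and PSMD2 (62.6% of all genes do not). Within a line the groups overlap or lie close together.

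The summed regulatory particle and the summed core stood in different proportion in the 2 lines. The regulatory particle was 1.231 times as high in uninduced SKMEL30 as in SKMEL2 (1.147 with total counts). Its parts differed: the ratio was 1.564 for PSMD1, PSMD2 and PSMD4 together, 1.238 for the lid members and 0.950 for the ATPase ring. The sum thus does not describe every subunit, and it leaves out SEM1 and ADRM1. The core was 1.063 times as high, a difference about as large as the SD of 138 CPM in SKMEL2, and was 0.99 with total counts. The ratio of the regulatory particle to the core, which no scaling of a library changes, was 1.183, 1.188 and 1.314 in uninduced SKMEL2 and 1.404, 1.442 and 1.410 in SKMEL30. Over all times the SKMEL2 libraries lay between 1.139 and 1.314 and the SKMEL30 libraries between 1.395 and 1.442, without overlap. Of single genes, 62.6% had no overlap between the lines either. CPM is not scaled by gene length, so the ratio is compared between lines only and does not give the proportion of the particles.

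**Figure D4:**
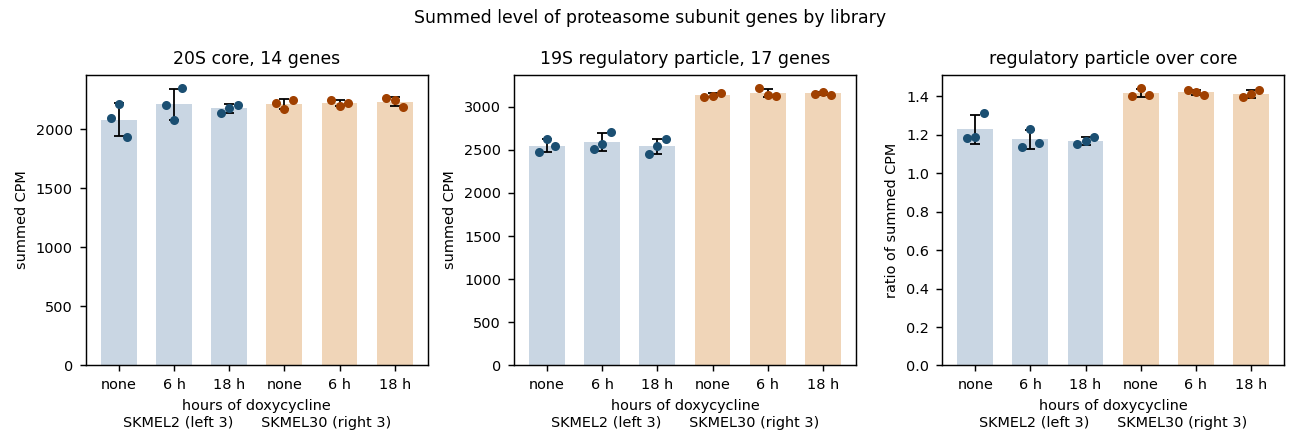
Summed CPM (y axis, from 0) of the 14 core genes and the 17 regulatory particle genes, and their ratio, by line and hours of doxycycline (x axis); bars are means of 3 libraries, error bars the SD and points the libraries. The ratio lies between 1.139 and 1.314 in SKMEL2 and between 1.395 and 1.442 in SKMEL30.

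Per kilobase of the canonical transcript, subunits of one particle were present at very different levels. In uninduced SKMEL2 the members ran from 11.5 CPM per kb (PSMD9) to 377 (PSMB4), with a median of 77.7, and in SKMEL30 from 12.5 (PSMD9) to 323 (PSMA7), with a median of 84.4. Among the catalytic subunits PSMB6 was the lowest in both lines, with 40.9 and 68.7 CPM per kb, followed by PSMB5 with 80.7 and 87.1 and PSMB7 with 177 and 171. The libraries of these 3 genes did not overlap on this scale in uninduced cells of either line. These levels depend on which transcript length is taken, and the isoforms expressed were not determined.

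The position of the genes was compared with the differences. On chromosome 17, 6 members are encoded, of which 5 (PSMB3, PSMB6, PSMD3, PSMD11 and PSMD12) were higher in SKMEL30 at all 3 times and 1 (PSMC5) was lower, a count chosen after its values were seen. For each member the median difference of the nearest 10 tested genes on each side was taken from the order of genes in RefSeq. The neighbours of PSMB1, which lies near the end of its chromosome and had 12, had a median of -1.02 with 11 of 12 lower in SKMEL30. Those of PSMB6 had a median of 0.64 (18 of 20 higher), of PSMD11 0.47 (18 of 20), of PSMD12 0.73 (17 of 20) and of PSMD6 -1.21 (15 of 20 lower). Other members differed in sign from their neighbours. PSMD2 lay among neighbours with a median of -0.20, PSMA2 (0.47) with -0.62, PSMD8 (0.27) with -0.34 and PSMB4 (-0.33) with 0.21. Across the 34 members the differences of member and neighbours had a correlation of 0.6 and the same sign in 24, as a description, since the genes share libraries and some share neighbours. The same values over all tested genes were not taken, so these are not shown to be particular to the members. The DNA copy number of the lines was not analysed here, and its part in the differences was not tested.

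**Figure D5:**
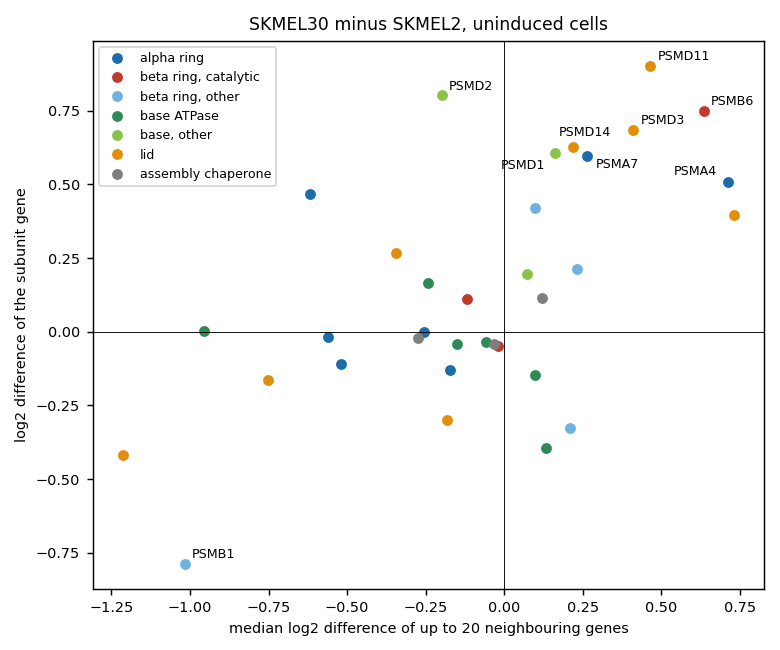
Log2 difference between SKMEL30 and SKMEL2 in uninduced cells for each proteasome subunit gene (y axis) against the median of up to 20 neighbouring genes (x axis), coloured by role, with genes at 0.5 or more in absolute value named. PSMB1 lies at -1.02 and -0.79, PSMB6 at 0.64 and 0.75, and PSMD2 at -0.20 and 0.80.

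Other genes of the pathway were read in the same way. Of 33 genes for inducible subunits, activators, assembly factors, associated proteins, shuttle factors and transcriptional control, 31 were tested. None was called in any of the 8 comparisons that involve induction, by edgeR or DESeq2, and at an unadjusted p under 0.05 there were 1 at 18 hours in SKMEL30, 1 for the line difference at 6 hours and 0 in the other 6. Between uninduced lines 15 of the 31 were higher in SKMEL30 (against 35.8% of all genes) and 10 lower (against 40.1%), where 75.9% of all genes were called in either direction.

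The largest difference among these 31 was that of PAAF1, a chaperone of the base ATPases, which stood at 19.5 ± 0.242 CPM in SKMEL2 and 52.3 ± 2.84 in SKMEL30 (log2 difference 1.42 ± 0.058 SE). POMP, which matures the core, stood at 69.7 ± 14.3 and 136 ± 7.75 (0.96 ± 0.10 SE). In the control of subunit transcription, NGLY1, the glycanase that activates NRF1, was lower in SKMEL30 (-0.99), DDI2, the protease that cleaves it, was higher (0.77), and NFE2L1 itself was not called (0.12, with 341 ± 32.3 and 371 ± 5.80 CPM). The immunoproteasome subunit PSMB8 was higher in SKMEL30 (0.41), and PSMB9 (-0.01) and PSMB10 (-0.05) were not called.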

How the data were processed

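The members and lists used here were chosen with earlier results of these data known. The deposited file holds expected counts per Ensembl gene in 18 libraries. Per the study's methods the authors trimmed paired 43-base reads, aligned them with STAR to the GRCh38 transcriptome (Ensembl release 86) and estimated counts with RSEM. The labels give the later time as 18 hours, which is used here, and the paper's text a slightly earlier hour. Of the values 12.3% were not whole to within 0.005, as RSEM divides reads that match several genes, and 17 of 34 members were whole in every library. Gene symbols were matched for 95.8% of IDs.

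Counts were rounded and tested with edgeR 4.0.16 in R 4.3.3 (quasi-likelihood, TMM factors, filterByExpr), with the 9 libraries of a line for induction and all 18 for comparisons of lines, and adjusted by Benjamini-Hochberg over 16120 (SKMEL2), 15026 (SKMEL30) and 17133 genes. SE is the log2 fold change over the square root of F. Printed CPM uses one TMM scale over 18 libraries. Complex sums carry no test. Permutation tests used scipy 1.17.1. With 3 libraries against 3 an exact test cannot go below 0.1, so none was run. Members given by library were the catalytic subunits, PSMD14 and PSMD4, the 2 smallest p in each induction comparison, the 5 largest line differences, and the smallest p in each difference of response. Alternatives were DESeq2 1.42.0, RLE factors, other filters, a replicate block, other sets of libraries, each library left out, and total counts without factors. The last, and all alternatives for the complex sums, were chosen after seeing the data. Scripts were tested on simulated counts. Transcript lengths came from the GENCODE canonical transcripts, positions and promoters from RefSeq (GRCh38.p14). Of the marker genes, PECAM1 had no matching row.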

Additional observations from a re-analysis of the deposited data

How the results depend on the processing

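None of the 34 members was called in any of the 120 alternative fits of the 8 comparisons that involve induction. Leaving out single libraries, the members' median ranged from 0.013 to 0.085 in SKMEL2 at 6 hours, from -0.001 (without the third uninduced library) to 0.058 (without the second) at 18 hours, from -0.001 to 0.029 in SKMEL30 at 6 hours (lowest without its second uninduced library) and from 0.012 to 0.02 at 18 hours. Libraries with the same replicate number had low correlations of deviations. Of 9 in each line 2 were above 0.1 (range -0.12 to 0.14 in SKMEL2, -0.03 to 0.14 in SKMEL30). Libraries of different numbers were not correlated for reference, so these values cannot show whether the numbers pair the libraries. With the replicate block 0 members were called on induction and 23, 24 and 23 between the lines, as without it.

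The median difference between the lines (0.057, 0.03 and 0.043 uninduced, at 6 and at 18 hours) became 0.007, -0.024 and -0.007 with at least 10 counts in every library, which drops genes low in either line, and -0.045, -0.066 and -0.087 with total counts. With RLE factors the members called were 24, 23 and 21, and with DESeq2 23, 22 and 21. Without single libraries the uninduced median ranged from 0.02 to 0.149 (highest without the second uninduced SKMEL2 library). Without that library PSMB5 was called (0.18, adjusted p = 0.0306 by edgeR, where the adjusted p ranged to 0.917 over its alternatives). The uncalled differences of PSMA1 (-0.075 to 0.049) and PSMC6 (-0.07 to 0.007) changed sign when single libraries were left out; the cause was not tested. With total counts PSMA1 (-0.122, adjusted p = 0.0431 by edgeR), PSMB7 (-0.151, 0.00605) and PSMC6 (-0.136, 0.0282) were called lower in SKMEL30, and the adjusted p over their alternatives ranged up to 0.985, 0.891 and 0.988. These 3 are from the 15 members given by library. Over all 34 members the number called lower in uninduced cells went from 8 to 15, so further members that were called are not named. The ratio of the regulatory particle between the lines was 1.147 with total counts. With 3 libraries a group, the spread between SKMEL2 libraries sets the width of its intervals.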

Other observations

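PSMC1P1, a processed pseudogene of the ATPase gene PSMC1, was the only one of 36 pseudogenes of 15 members with a mean of at least 1 CPM. It was 45.3 ± 2.98 CPM (SD, n = 3) in uninduced SKMEL2 and 48.5 ± 8.01 in uninduced SKMEL30, beside 122 ± 1.36 and 136 ± 7.09 for PSMC1. At 18 hours it was 45.8 ± 7.93 and 48.6 ± 3.22. Its part in the values of PSMC1 was not tested.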
